A study of Mus musculus with 46 samples.

Results

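Mitochondrial ribosomal protein genes were followed through an RNA sequencing study of Falcor, a mouse long noncoding RNA listed under the symbol 9030622O22Rik. The members were the genes whose symbol is Mrpl or Mrps followed by a number and at most 1 letter, and whose name stood in all 4 deposited tables. The rule used names only and no measured value. It found 78 genes among 54346 names shared by the tables, of which 26 encode proteins of the small subunit and 51 proteins of the large subunit. Mrps18a and Mrps30 were counted with the large subunit, where their proteins sit despite their names. Mrps36 was kept apart because its protein is now known as a component of the 2-oxoglutarate dehydrogenase complex.

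The mitochondrial ribosome translates the few messenger RNAs of the mitochondrial genome, which encode core subunits of the respiratory chain and of ATP synthase. Its ribosomal RNAs come from mitochondrial DNA, whereas all of its proteins are encoded in the nucleus, made in the cytosol and imported. Some of these proteins descend from bacterial ribosomal proteins and others were acquired in the mitochondrial lineage. The liver depends on oxidative phosphorylation for gluconeogenesis, ureagenesis and fatty acid oxidation.

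The 46 libraries came from AML12 cells, a mouse hepatocyte line derived from a transgenic animal that overexpresses transforming growth factor alpha, and from mouse liver. In AML12 cells with a doxycycline-inducible hairpin, the tested hairpin is labelled shLinc and its control shCtrl, and each was sequenced in 3 states labelled No Dox, Add Dox and Restored, with 3 libraries in every group. In AML12 cells with conventional, not inducible, hairpins, 3 libraries carried shFalcor and 3 carried shZC3H11A, a hairpin against the zinc finger protein gene Zc3h11a, against 3 with shCtrl. Livers labelled Falcor KO were compared with livers labelled Ctrl on NCD (4 against 4) and on HFD (6 against 5), the study's normal and disease settings. The doxycycline dose and exposure, the allele of the knockout, the age and sex of the animals and the number of clones behind each hairpin line were not stated in the labels, so hairpin and cell line cannot be told apart. The purpose was to learn what Falcor does in nuclear speckles, whether it acts together with ZC3H11A, and what its loss does in the liver. No label ties replicates to separate cultures, so p-values in AML12 cells measure only how far these libraries differ, and that spread may be technical.

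Falcor itself was checked first. In shLinc cells it had deposited values of 12, 9 and 10 in No Dox, 2, 2 and 3 in Add Dox and 11, 9 and 11 in Restored, against 4, 6 and 5, then 5, 4 and 5, then 5, 4 and 5 in shCtrl cells. Thus shLinc cells held more Falcor than shCtrl cells in No Dox and in Restored (log2 fold changes of 0.75 and 0.86, limma adjusted p = 1.88e-04 and 6.40e-05) and less in Add Dox (-0.78, 2.18e-04). Falcor had 7, 4 and 5 reads in shFalcor cells and 4, 3 and 6 in shZC3H11A cells, against 38, 11 and 24 in shCtrl cells. Zc3h11a had 33, 64 and 33 reads in shZC3H11A cells, against 558, 375 and 359 in shCtrl cells. In livers Falcor was listed at 0 in every KO library, against 70 to 135 in NCD Ctrl livers and 17 to 27 in HFD Ctrl livers. Of the hepatocyte markers, Cps1 (carbamoyl phosphate synthetase of the urea cycle) was listed at 0 throughout the inducible table, where 4 cholangiocyte markers summed to 875 to 1302 although Epcam was listed at 0. The summed value of 8 hepatocyte markers moved with the groups and is given beside the results it touches.

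The inducible and liver tables hold whole numbers that sum to nearly the same total in each column and keep no depth, so their values are called scaled values here after division by a library factor. They are probably normalised for transcript length, since conventional counts exceeded inducible values by more in longer transcripts (slope of the log2 ratio on log2 length 0.933, Pearson r = 0.579, across 7507 genes, which are not independent replicates), although no source says so. Levels and shares of a column total in these tables then refer to amounts per length, and those in CPM do not. The conventional table holds read counts of 4474760 to 8837581 per library, given as CPM, counts divided by library size. A member was called changed when the Benjamini-Hochberg adjusted p over all genes tested was below 0.05, by limma for the inducible and liver tables and by edgeR's quasi-likelihood test for the conventional table. Because 1 was added to each value before log2 was taken, the fold changes of low members in the limma tables are understated. All 78 members had a mean of at least 3 in the inducible and conventional tables, 67 in the NCD table and 62 in the HFD table. The members too low for a test in both diets were Mrpl19, Mrpl23, Mrpl32, Mrpl47, Mrpl57, Mrps5, Mrps14, Mrps16, Mrps25 and Mrps26. Mrpl21 fell below that mean in NCD only, and Mrpl3, Mrpl35, Mrpl51, Mrps30, Mrps35 and Mrps36 in HFD only. A member could pass through 1 group alone.

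The member genes lie on 17 chromosomes. In the GENCODE annotation of GRCm38, 32 of the 78 overlap a gene on the other strand and 6 overlap a gene on the same strand, among them Mrps24 with Urgcp and Mrps34 with Nme3. Whether the counting used strand is not given in the sources used here, so values of these members may include reads of their neighbours. For example, Mrpl18 overlaps Tcp1 and Mrpl19 overlaps Gcfc2 on opposite strands.

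Promoters were scanned because the members are known targets of shared factors. Windows of 250 bases before to 50 bases after the RefSeq start (GRCm38.p6) were found for 69 member genes, in 75 windows, and were compared with all 32851 windows on both strands. The motif of NRF1 (nuclear respiratory factor 1), searched as GCGCA and GCGC with any 1 base between them, was in 17.3% of member windows and in 4.6% of all windows. The ETS motif CCGGAAG, which GABP binds, was in 34.7% of member windows and in 8.86% of all. The YY1 motif AAGATGGCG was in 10.7% of member windows and in 1.4% of all. In contrast, CCAAT was in 40% against 37.4%, CACGTG in 9.33% against 7.15%, and TGATGCAA, a sequence that ATF4 binds, in 0% against 0.895%. The GC box GGGCGG was in 52% of member windows and in 35.7% of all. A match describes letters in a window and is not evidence of binding. The 150 bases before the start are shown for a member that was lower with shLinc in No Dox and holds the NRF1 motif (Mrpl12, chr11:120484487-120484636, plus strand), for a second such member with the ETS motif (Mrps18a, chr17:46110854-46111003, plus strand), for the member with the largest difference in knockout livers, with the ETS motif on the reverse strand (Mrpl52, chr14:54426759-54426908, plus strand), and for the member that went the other way in No Dox and holds none of the NRF1, ETS and YY1 motifs (Mrpl50, chr4:49521084-49521233, minus strand). Capitals mark the motif, which in Mrpl12 as in Mrpl52 reads on the reverse strand.
Mrpl12: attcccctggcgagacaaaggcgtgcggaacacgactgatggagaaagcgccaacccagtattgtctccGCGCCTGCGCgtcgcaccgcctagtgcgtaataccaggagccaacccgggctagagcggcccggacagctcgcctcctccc
Mrps18a: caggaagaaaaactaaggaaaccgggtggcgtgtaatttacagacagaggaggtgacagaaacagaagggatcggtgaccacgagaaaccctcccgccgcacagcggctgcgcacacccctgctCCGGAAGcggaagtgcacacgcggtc
Mrpl52: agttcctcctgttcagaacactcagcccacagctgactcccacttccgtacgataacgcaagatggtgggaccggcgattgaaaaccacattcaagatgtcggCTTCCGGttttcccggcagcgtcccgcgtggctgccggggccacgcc
Mrpl50: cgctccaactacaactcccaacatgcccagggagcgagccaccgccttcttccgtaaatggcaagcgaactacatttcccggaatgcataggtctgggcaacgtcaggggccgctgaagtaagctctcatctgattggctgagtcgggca

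The levels of the members differed widely within each table. In the inducible table Mrpl33 had the highest mean deposited value of all members in 5 of the 6 groups, and Mrps21 (204) in shLinc No Dox. The lowest was Mrpl3 in 4 groups, Mrpl32 and Mrpl47 equally in shLinc Restored, and Mrpl47 in shCtrl Restored. In livers, Mrps21, a small subunit protein of bacterial descent, led in both diets with means of 70.6 on NCD and 39.0 on HFD. Together the members held 0.501 to 0.522% of the column total in shLinc No Dox, 0.596 to 0.606% in shLinc Add Dox and 0.535 to 0.542% in shLinc Restored, against 0.592 to 0.636%, 0.583 to 0.595% and 0.602 to 0.623% in the shCtrl libraries of the same states. The shLinc share was thus below every shCtrl library in No Dox and in Restored, and above every shCtrl library in Add Dox.

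**Figure D1:**
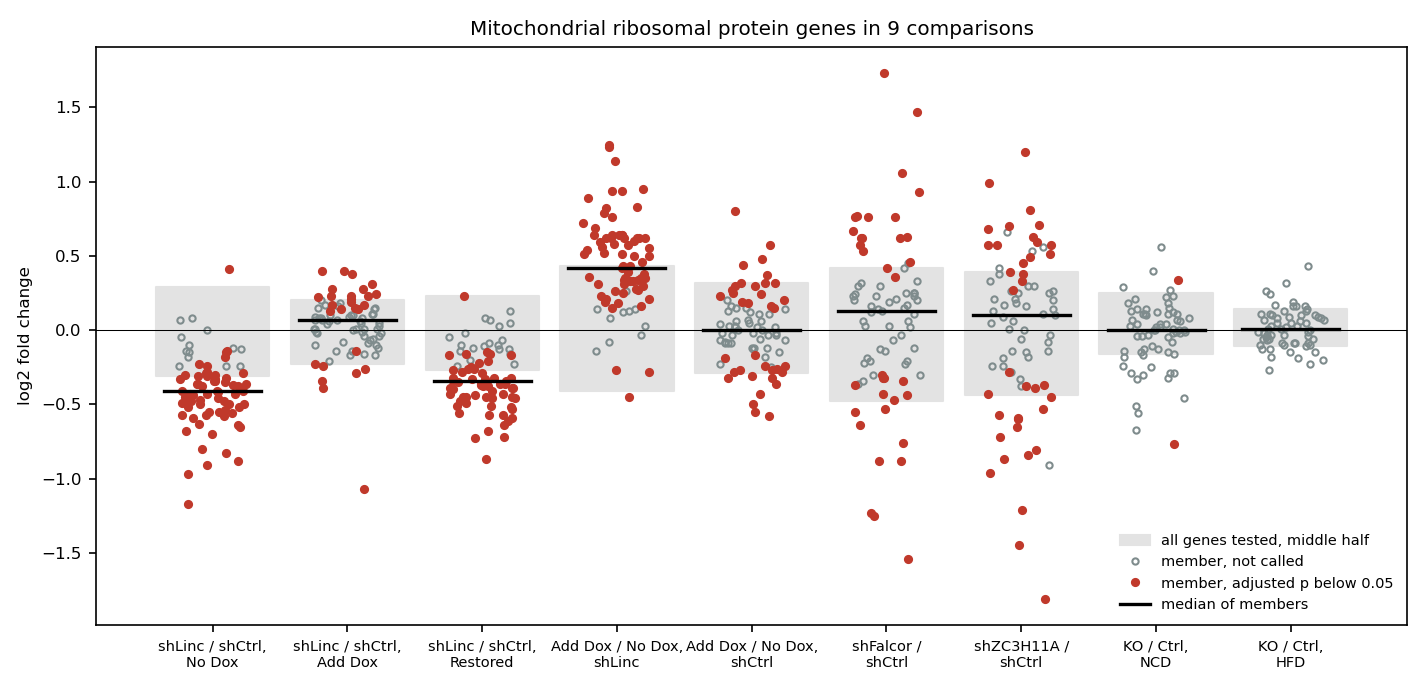
Log2 fold change of each tested member in 9 comparisons, with called members as filled points, the others as open points, the member median as a black line and the interquartile range of all genes tested as a grey band. The members lie mostly below 0 with shLinc in No Dox (median -0.41) and in Restored (median -0.34), near 0 in Add Dox (median 0.07), and spread on both sides of 0 with shFalcor, whose range is -1.54 to 1.73.

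In the No Dox state, where shLinc cells held more Falcor than shCtrl cells, most mitochondrial ribosomal protein genes were lower in shLinc cells. Of 78 members 64 fell and 1 rose, and 13 were not called. Across all 9877 genes tested, 65.3% were called, 30.2% higher and 35.1% lower. The member median log2 fold change was -0.41, beside -0.01 over all genes, and 75 of 78 members had a negative value. Both subunits took part, with 22 of 26 small subunit genes and 41 of 51 large subunit genes lower. Hepatocyte markers moved with these groups, since their sum was 1305 to 1385 in shLinc and 529 to 555 in shCtrl libraries, and its part in the result was not tested. In these bulk samples fewer cells of a type and less RNA per cell cannot be told apart.

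Mrps18b, 1 of the mammalian relatives of bacterial S18 and part of the small subunit, had scaled values of 65.7, 65.0 and 64.2 in shLinc No Dox libraries, against 123, 114 and 113 in shCtrl No Dox libraries. The groups were far apart and the shLinc libraries nearly equal, with a log2 fold change of -0.83 ± 0.04 (SE) and an adjusted p of 1.51e-11 by limma. Mrps18a, its relative in the large subunit, had 48.1, 53.5 and 49.7 in shLinc, against 110, 93.2 and 85.7 in shCtrl. It was likewise lower in every shLinc library (log2 fold change -0.91 ± 0.06, limma adjusted p = 1.94e-09). Mrpl12, a stalk protein of the large subunit that in mammals has also been found with the mitochondrial RNA polymerase, had 107, 108 and 112 in shLinc, against 220, 182 and 171 in shCtrl. That separation gave a log2 fold change of -0.80 ± 0.07 (limma adjusted p = 1.55e-08). Mrpl23, a relative of the bacterial protein beside the exit of the nascent peptide tunnel, was low in both groups and had the largest fold of the members, with 4.63, 5.35 and 6.33 in shLinc, against 14.2, 14.0 and 12.1 in shCtrl. Its log2 fold change was -1.17 ± 0.20 (limma adjusted p = 9.33e-05). Mrps28, a small subunit protein, was lower by a similar fold, averaging 17.8 in shLinc and 36 in shCtrl (log2 fold change -0.97, limma adjusted p = 5.32e-08). Mrpl33, a small protein of the large subunit, averaged 164 in shLinc and 306 in shCtrl, a log2 fold change of -0.88.

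Other members with well described roles moved the same way by smaller amounts. The genes of the stalk base, Mrpl10 and Mrpl11, fell by 0.30 and 0.48 on the log2 scale. Mrps12, whose protein lies at the decoding centre, fell by 0.46, and Mrps27, a pentatricopeptide repeat protein of the small subunit, fell by 0.65. Mrpl44, which has a ribonuclease III-like fold, fell by 0.47, and Mrpl45, which faces the inner membrane at the tunnel exit, fell by 0.18. Mrpl58, a peptidyl-tRNA hydrolase built into the large subunit, fell by 0.36. Mrps36, of the 2-oxoglutarate dehydrogenase complex, also fell, by 0.38. All of these had adjusted p values between 2.31e-07 and 0.00353 by limma. The members not called were Mrpl1, Mrpl3, Mrpl9, Mrpl19, Mrpl24, Mrpl32, Mrpl39, Mrpl47, Mrpl55, Mrps2, Mrps14, Mrps31 and Mrps35.

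Mrpl50, a large subunit protein with no bacterial relative, was the 1 member that rose. It had 30.5, 30.3 and 30.7 in shLinc No Dox libraries, against 24.1, 22 and 22.2 in shCtrl libraries, and the groups did not overlap. Its log2 fold change was 0.41 ± 0.05 (limma adjusted p = 2.20e-06). One shCtrl library, replicate 1, was the highest of its group for 68 of the 78 members. Without it, 65 members were lower and 2 higher.

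**Figure D2:**
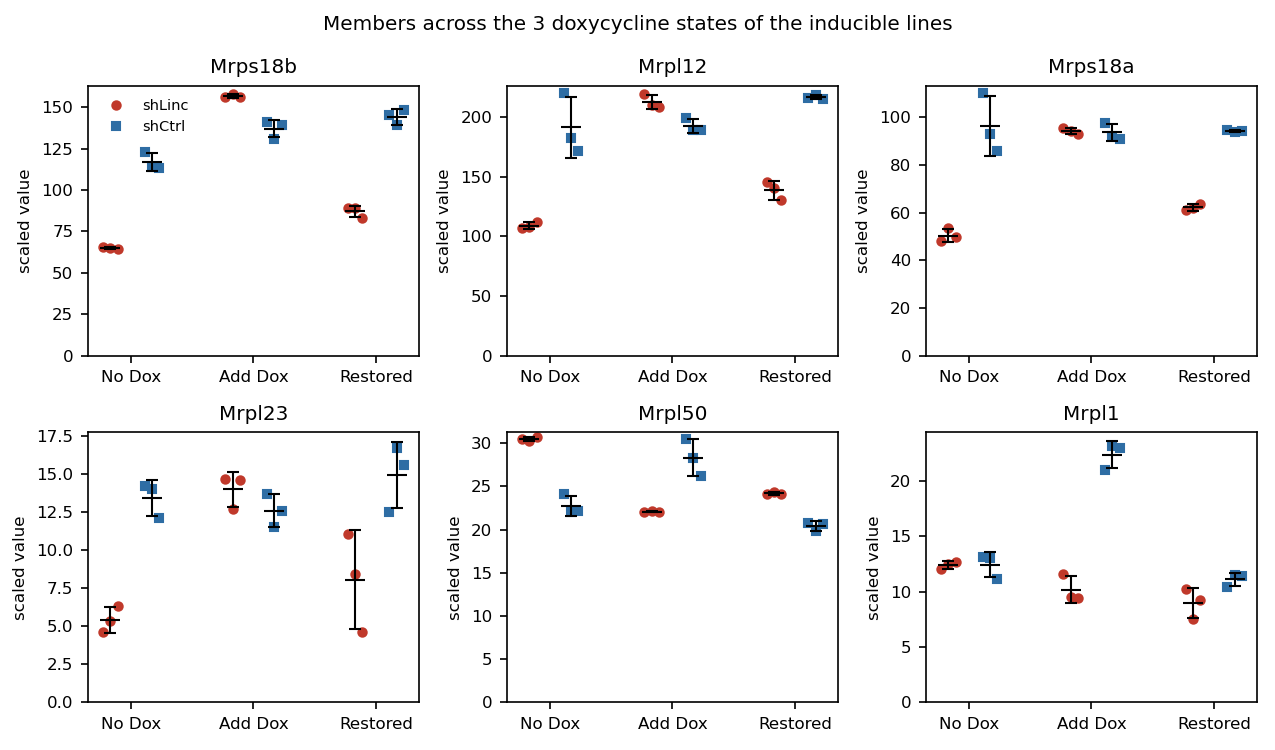
Scaled values of chosen members in the 18 inducible libraries, by state in the order No Dox, Add Dox and Restored, with shLinc left of shCtrl; points are libraries, and black lines are the mean ± SD of 3. Mrps18b averages 65.0 in shLinc and 117 in shCtrl in No Dox, 156 and 137 in Add Dox, and 87.1 and 144 in Restored.

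With doxycycline added, when shLinc cells held less Falcor than shCtrl cells, most members were not called. Of the 78 members 19 were higher in shLinc Add Dox libraries, 8 were lower and 51 were not called, while 52.4% of all genes were called, 25.4% higher and 27% lower. The member median was 0.07, beside 0.00 over all genes. When these 2 groups were fitted without the rest, 30 members were higher and 10 lower, beside 3023 and 2861 of all 9877 genes. Upper-quartile scaling gave 24 higher and 6 lower, beside 3045 and 2220 of all genes, whose median was then 0.05. The higher share of the members with that scaling was near that of all genes. Hepatocyte marker sums were 443 to 456 in shLinc and 758 to 774 in shCtrl, and their part was not tested. The 19 higher members included Mrps5 and Mrpl19, both relatives of bacterial proteins, with log2 fold changes of 0.40 each, and Mrpl24, also of bacterial descent, with 0.38. Mrpl11 of the stalk base rose by 0.28 and averaged 124 in shLinc and 101 in shCtrl (limma adjusted p = 9.95e-04). Mrps18b rose by 0.19. Mrpl12 had 219, 210 and 208 in shLinc, against 199, 189 and 189 in shCtrl, a difference that was not called although its groups did not overlap (log2 fold change 0.14, limma adjusted p = 0.0799). Mrps18a, with a log2 fold change of 0.01, and Mrpl10, Mrpl44, Mrps30 and Mrps36 were not called.

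The largest difference among the members in Add Dox was a lower value of Mrpl1, a relative of the bacterial protein of the mobile L1 stalk. It had 11.6, 9.53 and 9.42 in shLinc Add Dox libraries, against 21.0, 23.1 and 23.0 in shCtrl Add Dox libraries. No library overlapped, and the log2 fold change was -1.07 ± 0.10 (limma adjusted p = 1.17e-07). In No Dox the gene had 12, 12.5 and 12.7 in shLinc, against 13.1, 13.0 and 11.1 in shCtrl, so the shCtrl Add Dox libraries were the high ones of these 12. Mrps18c, the third S18 relative, averaged 78.6 in shLinc and 104 in shCtrl (log2 fold change -0.39, limma adjusted p = 7.94e-05). Mrpl50 was lower here, at 22.1, 22.2 and 22 in shLinc, against 30.5, 28.3 and 26.2 in shCtrl (log2 fold change -0.34, limma adjusted p = 2.70e-05). Mrpl36, Mrpl46 and Mrpl42, all of the large subunit, fell by 0.29, 0.26 and 0.24.

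In the Restored state the members were again lower in shLinc cells. Of 78 members 57 fell and 1 rose, with 57.9% of all genes called, 25.7% higher and 32.1% lower. Their median was -0.34, beside -0.02 over all genes. Mrps18b had 88.9, 89.1 and 83.3 in shLinc, against 145, 139 and 148 in shCtrl (log2 fold change -0.72, limma adjusted p = 1.20e-10). Mrpl12 had 145, 140 and 130 in shLinc, against 216, 218 and 215 in shCtrl (log2 fold change -0.64, limma adjusted p = 2.70e-07). In both genes all 3 shLinc libraries lay below all 3 shCtrl libraries. Mrps27 had 16.7, 18.8 and 18.5 in shLinc, against 30.1, 28.1 and 30.1 in shCtrl, a log2 fold change of -0.68. Mrps10, a small subunit protein of bacterial descent, fell by 0.73. Mrpl23 was uneven among shLinc libraries, with 11.1, 8.44 and 4.63 in shLinc, against 12.5, 16.7 and 15.6 in shCtrl. Its log2 fold change of -0.87 became -0.56 without shLinc replicate 3, and its limma adjusted p became 0.0583 when the 2 groups were fitted without the rest. Mrpl50 was higher again, at 24.1, 24.4 and 24.1 in shLinc, against 20.8, 19.8 and 20.7 in shCtrl (log2 fold change 0.23, limma adjusted p = 8.16e-04).

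In all, 55 of 78 members were lower in shLinc in both the No Dox and the Restored state. In Add Dox 39 of these 55 were not called, 11 were higher and 5 were lower. Of all genes, 35.1% were lower in No Dox and 32.1% in Restored. The share of all genes lower in both states, and its course in Add Dox, was not counted. These joint counts therefore do not show what is particular to the members. Hepatocyte marker sums in Restored were 1513 to 1535 in shLinc and 632 to 646 in shCtrl, and were therefore higher in shLinc in the same 2 states in which the members were lower. Their part in the result was not tested.

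Within shLinc cells most members were higher on doxycycline. Compared with No Dox, 65 of 78 were higher and 3 were lower in Add Dox, with 74.2% of all genes called, 38.6% higher and 35.6% lower. Their median was 0.42, beside 0.02 over all genes. The hepatocyte marker sum moved the other way, at 443 to 456 in Add Dox and 1305 to 1385 in No Dox, and its part was not tested. Mrps18b had 156, 158 and 156 in Add Dox, against 65.7, 65.0 and 64.2 in No Dox (log2 fold change 1.25, limma adjusted p = 1.67e-14). Mrpl12 averaged 212 in Add Dox and 109 in No Dox (log2 fold change 0.95, limma adjusted p = 5.29e-10). Mrpl50 fell by 0.45 and Mrpl24 by 0.28. The same step in shCtrl cells gave 19 members higher and 17 lower, with 66.5% of all genes called, 34% higher and 32.5% lower. The member median was 0.00, beside 0.01 over all genes. The shCtrl hepatocyte marker sum was 758 to 774 in Add Dox and 529 to 555 in No Dox, and its part was not tested. In shCtrl cells Mrpl12 was not called, averaging 192 in Add Dox and 191 in No Dox (log2 fold change 0.02, limma adjusted p = 0.849), while Mrpl1 rose to 22.4 in Add Dox, against 12.4 in No Dox (log2 fold change 0.80). Mrpl42 and Mrps18c rose by 0.48 and 0.44, and Mrpl24 and Mrps12 fell by 0.58 and 0.50.

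On return to the Restored state, 59 members fell and 3 rose in shLinc cells relative to Add Dox, with 72.2% of all genes called, 34.2% higher and 38% lower. For shLinc the median was -0.35, beside -0.03 over all genes, and the hepatocyte marker sum was 1513 to 1535 in Restored and 443 to 456 in Add Dox, whose part was not tested. In shCtrl cells 26 rose and 23 fell, with 73.7% of all genes called, 39.6% higher and 34.2% lower, and a median of 0.05 beside 0.04. The shCtrl hepatocyte marker sum was 632 to 646 in Restored and 758 to 774 in Add Dox, and its part was not tested. Mrps18b fell by 0.84 in shLinc cells. Mrpl42 was lower in both, at 84.2, 85.3 and 87.9 in Restored against 179, 174 and 163 in Add Dox in shLinc cells, and at 102, 96.9 and 91.2 against 204, 197 and 207 in shCtrl cells. Its log2 fold changes were -0.99 in shLinc cells and -1.06 in shCtrl cells. Restored compared with No Dox gave 26 members higher and 9 lower in shLinc cells, with 52.3% of all genes called, 28.5% higher and 23.8% lower. In shCtrl cells 14 were higher and 18 lower, with 49.9% of all genes called, 27.1% higher and 22.8% lower. The shLinc rise was led by Mrps28 (0.55), Mrps9 (0.52), a small subunit protein of bacterial descent, and Mrps18b (0.42). Without scaling between libraries, 42 members were lower and 9 higher in shLinc Restored than in Add Dox, beside 2636 and 4404 of all genes. Against No Dox, 23 members were then higher and 13 lower, beside 2409 and 2569 of all genes.

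**Figure D3:**
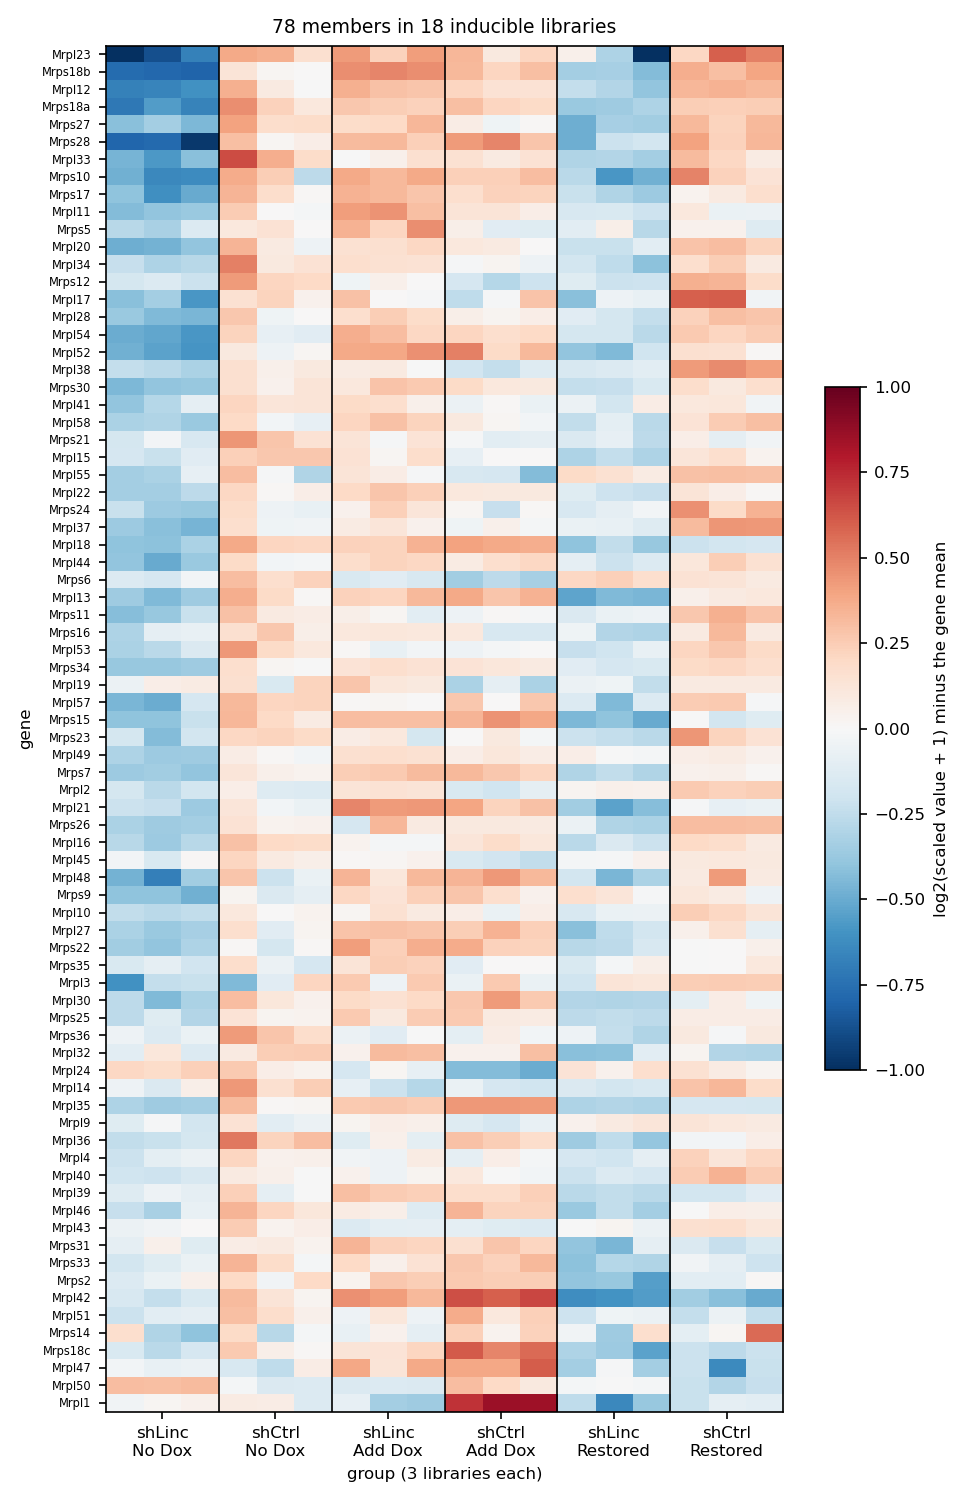
Log2(scaled value + 1) of each of the 78 members in the 18 inducible libraries, each gene centred on its own mean, with libraries ordered by state and shLinc left of shCtrl. The shLinc libraries of No Dox and Restored are low for most members, and Mrpl50 and Mrpl24 run against the majority.

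The difference between states was tested directly as an interaction, the shLinc over shCtrl log2 fold change in Add Dox minus that in No Dox. It was positive and called for 63 of 78 members and negative and called for 2, with 64.9% of all genes called, 33.9% positive and 31% negative. Over all members the median difference was 0.45, beside 0.02 over all genes. The 2 were Mrpl1 (-1.07, limma adjusted p = 3.20e-06) and Mrpl50 (-0.75, limma adjusted p = 1.06e-07). At the other end stood Mrpl23 (1.32), Mrps18b (1.02, limma adjusted p = 1.20e-10), Mrpl12 (0.94) and Mrps18a (0.92). The difference between Add Dox and Restored was positive for 56 members and negative for 4, with 60.5% of all genes called, 31.7% positive and 28.8% negative. The median difference was 0.38, beside 0.02 over all genes. It was led by Mrpl23 (1.02), Mrps18b and Mrps27 (0.91 each) and Mrps10 (0.83). Mrpl1 (-0.79) and Mrpl50 (-0.57) were again the most negative, whereas the calls of Mrpl51 (-0.30) and Mrps18c (-0.22) were lost when any of several single libraries was left out, among them shLinc Add Dox replicate 1, where the limma adjusted p values were 0.0878 and 0.0855. The 2 interactions share the Add Dox libraries and are not independent.

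Transcript length and library scaling moved with these results. The members have short transcripts, with a median length of 1051.5 nt against 1982 nt for all genes tested. Across genes, shLinc over shCtrl fold changes rose with transcript length in No Dox (Spearman 0.305) and in Restored (0.223). In Add Dox they fell slightly with length (-0.0856). These correlations are across genes of the same libraries, which are not independent replicates. After the trend with length was subtracted, 60 members were lower and 2 higher in No Dox (median -0.30), and 48 lower and 4 higher in Restored (median -0.24). Of all 9582 genes in these fits, 3266 were lower and 2979 higher in No Dox, and 2825 lower and 2877 higher in Restored. Within shLinc cells 57 members were then higher and 6 lower in Add Dox compared with No Dox (median 0.38), beside 3645 and 3641 of all genes. Without scaling between libraries the median of all genes lay at 0.16 in No Dox and at 0.13 in Restored, and 50 members were lower and 2 higher in No Dox and 43 lower and 7 higher in Restored. The corresponding shift for Add Dox against No Dox in shLinc cells was -0.18, with 45 members higher and 8 lower.

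Members resembled each other in their course over the 18 inducible libraries. The 5 most like Mrpl12 by Pearson correlation of log2 scaled values were Mrps34 (0.992), Mrpl28 (0.976), Mrpl54 (0.973), Mrps18b (0.973) and Mrps18a (0.971), and 16 of 77 exceeded 0.9. The lowest were Mrps6 (-0.002), Mrpl24 (-0.413) and Mrpl50 (-0.666). These values describe 18 libraries in 6 groups that share their library scaling and their group means.

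Related genes give the setting of the members in these cells. In No Dox, cytosolic ribosomal protein genes were lower in shLinc cells for 75 of 80 with none higher (median -0.41), and nuclear genes of the respiratory chain and ATP synthase for 56 of 78 with 4 higher (median -0.27). Mitochondrial translation factors were lower for 12 of 25 and higher for 2 (median -0.21), and assembly factors of the mitochondrial ribosome lower for 13 of 21 with none higher (median -0.27). Over all genes 35.1% were lower and 30.2% higher, with a median of -0.01. Of 5 mitochondrial ribosomal proteins with other names 3 fell, among them Chchd1, which averaged 66.7 in shLinc and 104 in shCtrl. Tufm, the elongation factor that brings aminoacyl-tRNA to the mitochondrial ribosome, averaged 139 in shLinc and 188 in shCtrl (log2 fold change -0.43, limma adjusted p = 7.38e-09). Of the RNAs encoded by mitochondrial DNA 9 of 16 were lower and none higher.

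Regulators moved in both directions. In No Dox, Pprc1, a coactivator of the PGC-1 family, averaged 11.5 in shLinc and 31.6 in shCtrl (log2 fold change -1.37, limma adjusted p = 6.63e-11). Atf4 and Atf5, transcription factors of the integrated stress response, averaged 166 and 113 in shLinc, against 316 and 311 in shCtrl. Nrf1 averaged 18.1 in shLinc and 23.7 in shCtrl (log2 fold change -0.36), while Gabpa, the ETS subunit of GABP, averaged 17.5 and 10.6 (log2 fold change 0.68, limma adjusted p = 3.13e-06). In Add Dox, Pprc1 averaged 71.9 in shLinc and 54.9 in shCtrl, and in Restored 27 and 52.3. Gabpa fell by 0.55 in Add Dox. In Add Dox, where 25.4% of all genes were higher and 27% lower, cytosolic ribosomal protein genes were higher for 36 of 80 and lower for 4 (median 0.12). The respiratory chain list was higher for 8 of 78 and lower for 26 (median -0.10). Its lower share was not far from that of all genes, while its higher share was well below the 25.4% of all genes. In Restored, where 25.7% of all genes were higher and 32.1% lower, cytosolic ribosomal protein genes were lower for 67 of 80 and higher for 1 (median -0.34), and the respiratory chain list lower for 33 of 78 and higher for 11 (median -0.11).

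With conventional hairpins the members did not share a direction. Of 78 members 18 were higher and 17 lower in shFalcor cells than in shCtrl cells, and 51.5% of all 11871 genes tested were called, 25.5% higher and 26% lower. The 35 called members are 44.9% of the members, near the share of all genes. The member median was 0.13, beside -0.00 over all genes. By subunit, 4 small subunit genes rose and 2 fell of 26, and 14 large subunit genes rose and 14 fell of 51. Hepatocyte marker sums were 571 to 1297 reads in shFalcor and 2438 to 3719 in shCtrl libraries, and their part was not tested. These sums were not divided by library size, which ranged from 4474760 to 8837581 reads.

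The genes that rose with shFalcor included Mrpl19 and Mrpl15, both large subunit proteins of bacterial descent, and Mrps22, a small subunit protein with no bacterial relative. Mrpl19 had 30.0, 26.3 and 25.4 CPM in shFalcor libraries, against 9.03, 6.47 and 8.85 CPM in shCtrl libraries. It was higher in every shFalcor library, with a log2 fold change of 1.73 ± 0.18 (edgeR adjusted p = 2.49e-07). Mrpl15 had 12.9, 15.9 and 16.5 CPM in shFalcor, against 6.25, 5.21 and 4.75 CPM in shCtrl (log2 fold change 1.47 ± 0.22, edgeR adjusted p = 2.84e-05). Mrps22 had 14.8, 13.4 and 11.3 CPM in shFalcor, against 6.6, 3.41 and 8.69 CPM in shCtrl, which also do not overlap (log2 fold change 1.06, edgeR adjusted p = 0.00232). Mrps18a, lower with shLinc in No Dox, was here higher, with 61.5, 65.2 and 54.3 CPM in shFalcor, against 34.0, 35.6 and 36.7 CPM in shCtrl (log2 fold change 0.76 ± 0.11, edgeR adjusted p = 1.13e-05). Mrpl10, Mrpl44 and Mrps30 rose by 0.46, 0.57 and 0.53.

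The genes that fell with shFalcor were led by Mrpl37, a large subunit protein with no bacterial relative. It had 8.47, 6.06 and 5.93 CPM in shFalcor libraries, against 20.0, 19.2 and 20.2 CPM in shCtrl libraries, far outside their spread (log2 fold change -1.54 ± 0.17, edgeR adjusted p = 4.99e-07). Mrps34, a small subunit protein whose gene overlaps Nme3, had 23.8, 20.9 and 19.8 CPM in shFalcor, against 43.6, 51.7 and 57.9 CPM in shCtrl (log2 fold change -1.25 ± 0.13, edgeR adjusted p = 4.47e-07). Mrps36 had 5.7, 6.27 and 3.51 CPM in shFalcor, against 11.7, 12 and 11.6 CPM in shCtrl (log2 fold change -1.23, edgeR adjusted p = 2.00e-04). Mrpl18, a relative of a bacterial protein that binds the ribosome's smallest RNA, had 8.63, 7.53 and 7.47 CPM in shFalcor, against 17.8, 11.3 and 14.1 CPM in shCtrl (log2 fold change -0.88). None of these 4 overlapped its shCtrl libraries. Mrpl4, another large subunit protein of bacterial descent, fell by 0.55, Mrpl45 by 0.37 and Mrpl12 by 0.34. Mrps18b had a log2 fold change of 0.23 and was not called (edgeR adjusted p = 0.095), nor were Mrpl11, Mrpl58, Mrps12, Mrps18c and Mrps27.

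**Figure D4:**
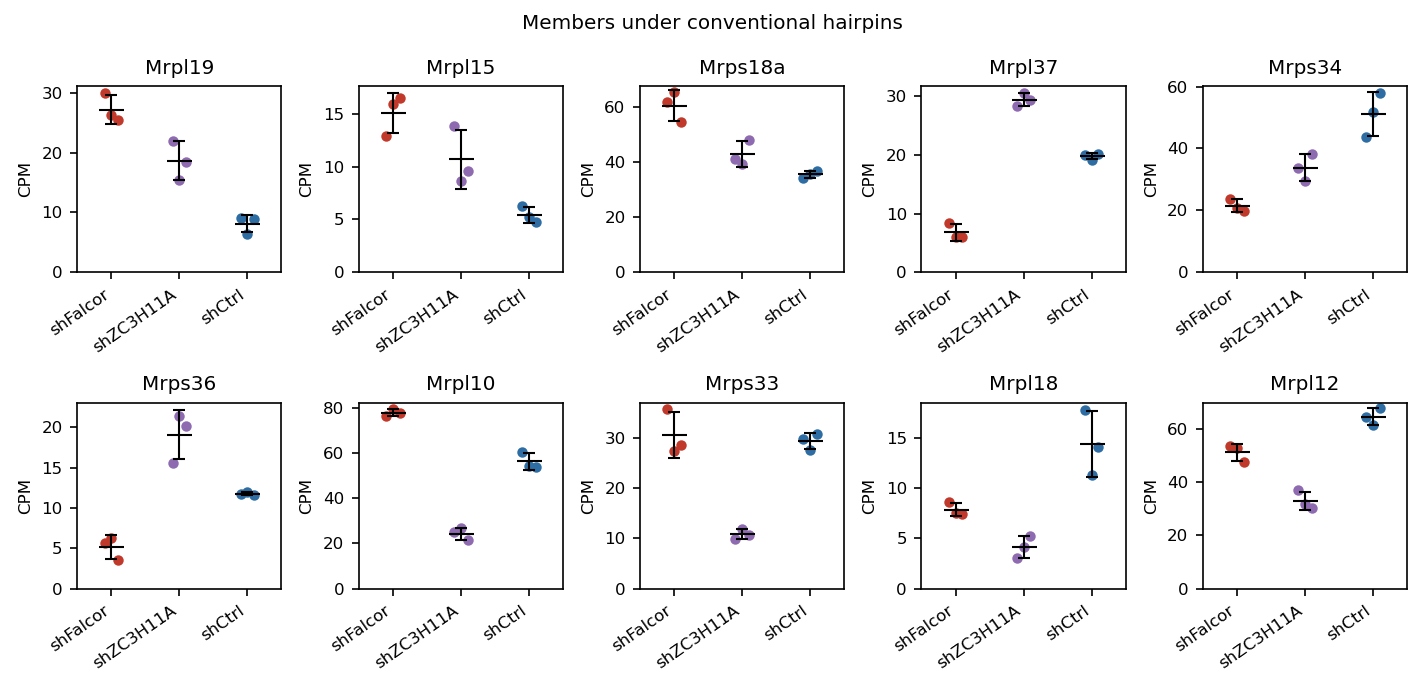
CPM of chosen members in the 9 conventional hairpin libraries, with shFalcor and shZC3H11A left of shCtrl; points are libraries, and black lines are the mean ± SD of 3. Mrpl19 is higher than in shCtrl with both hairpins, Mrpl37 is low with shFalcor alone, and Mrpl10 lies at 21.4 to 26.7 with shZC3H11A, against 53.9 to 60.5 with shCtrl.

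The hairpin against Zc3h11a gave 18 members higher and 19 lower, with 48.5% of all genes called, 24.2% higher and 24.3% lower, and a member median of 0.10 beside 0.00. It shares its shCtrl libraries with the shFalcor comparison, so values are given side by side. Mrpl19 had 22, 15.5 and 18.5 CPM in shZC3H11A libraries (log2 fold change 1.20 against shCtrl), and Mrpl15 had 13.9, 8.61 and 9.63 CPM (0.99). Mrpl18 had 3.06, 4.19 and 5.27 CPM in shZC3H11A (-1.81, edgeR adjusted p = 9.69e-06). Mrps33, a small subunit protein with no bacterial relative, had 9.88, 11.9 and 10.7 CPM in shZC3H11A, against 29.8, 27.7 and 30.8 CPM in shCtrl (-1.45, edgeR adjusted p = 3.19e-07). Mrpl10 had 24.9, 26.7 and 21.4 CPM in shZC3H11A, against 60.5, 54.4 and 53.9 CPM in shCtrl (-1.21, edgeR adjusted p = 3.35e-08). Mrpl12 of the same stalk had 36.9, 31.6 and 30.3 CPM in shZC3H11A, against 64.4, 61.3 and 67.9 CPM in shCtrl (-0.96, edgeR adjusted p = 5.34e-07). In all of these the shZC3H11A and shCtrl libraries did not overlap. Hepatocyte marker sums were 3278 to 4946 reads in shZC3H11A and 2438 to 3719 in shCtrl libraries. These counts too were not divided by library size, so their overlap does not compare the groups. Their part was not tested.

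Set against each other, shFalcor and shZC3H11A differed in 36 members, 20 higher and 16 lower with shFalcor, with 56.9% of all genes called, 28.4% higher and 28.6% lower. Their median was 0.11, beside -0.01 over all genes. Mrpl10 had 76.4, 79.4 and 77.5 CPM in shFalcor, against 24.9, 26.7 and 21.4 CPM in shZC3H11A (log2 fold change 1.68, edgeR adjusted p = 2.57e-10). Mrpl37 had 8.47, 6.06 and 5.93 CPM in shFalcor, against 28.3, 30.5 and 29.4 CPM in shZC3H11A (-2.11, edgeR adjusted p = 5.03e-09). Mrps36 likewise was lower with shFalcor, at 5.7, 6.27 and 3.51 CPM, against 15.6, 21.4 and 20.2 CPM in shZC3H11A (-1.92). Mrps33 and Mrpl13, a large subunit protein of bacterial descent, were higher with shFalcor by 1.51 and 1.23, and Mrpl44 by 1.14. In Mrpl10, Mrpl37 and Mrps36 the shFalcor and shZC3H11A libraries did not overlap.

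Among related lists, set beside 25.5% of all genes higher and 26% lower with shFalcor and 24.2% higher and 24.3% lower with shZC3H11A, cytosolic ribosomal protein genes were lower with shFalcor for 59 of 79 and higher for 1 (median -0.30), and with shZC3H11A higher for 39 and lower for 10 (median 0.21). With shFalcor the respiratory chain list had 21 of 78 higher and 15 lower, the mitochondrial translation factors 7 of 28 higher and 2 lower, and the assembly factors 7 of 24 higher and 3 lower. The shares higher in these 3 lists are near that of all genes. The shares lower are each below the 26% of all genes, a difference that was not tested. Ptcd3, a pentatricopeptide repeat protein of the small subunit under another name, averaged 31.9 CPM in shFalcor and 14.8 CPM in shCtrl (log2 fold change 1.11, edgeR adjusted p = 4.02e-06).

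In livers the members differed little. On NCD 1 of 67 tested members was higher in KO livers and 1 lower, with 5.98% of all 9536 genes called, 4.16% higher and 1.81% lower. By limma 15 members had an unadjusted p below 0.05. That count is not set beside the share of all genes and is not read as a result about the members. The member median was 0.00, beside 0.04 over all genes, the range was -0.77 to 0.56, and 56 of 67 members lay within 0.3 of 0. Mrpl52, a large subunit protein with no bacterial relative, had scaled values of 15, 15.7, 13.9 and 13.5 in KO livers, against 20.5, 25.7, 29.8 and 26.2 in Ctrl livers. All 4 KO livers lay below all 4 Ctrl livers, and the log2 fold change was -0.77 ± 0.11 (limma adjusted p = 0.0314). The call was lost in 6 of 8 fits that left out 1 liver, with a limma adjusted p of 0.0907 without Ctrl replicate 3, 0.078 without the control listed as Ctrl-3, and 0.0904, 0.0627, 0.0575 and 0.0939 without KO replicates 1 to 4, while the fold stayed between -0.86 and -0.71. Mrpl39, a large subunit protein with a fold related to threonyl-tRNA synthetase, had 8.97, 7.85, 7.82 and 9.01 in KO livers, against 6.83, 6.17, 6.39 and 6.29 in Ctrl livers. It too did not overlap (log2 fold change 0.34 ± 0.08, limma adjusted p = 0.0493), and its call was lost in 7 of 8 such fits, kept only without Ctrl replicate 4, with adjusted p values of 0.0823 to 0.143. Mrps24, a small subunit protein of bacterial descent, had 8.97, 9.81, 10.4 and 9.01 in KO, against 17.1, 14.4, 14.9 and 10.5 in Ctrl, and missed the threshold (log2 fold change -0.51, limma adjusted p = 0.0559). Mrps12 had 11, 11.8, 11.3 and 10.8 in KO livers, against 21.6, 23.6, 23.4 and 9.43 in Ctrl livers. Only Ctrl replicate 4 lay as low as the KO livers, and the gene was not called (log2 fold change -0.67, limma adjusted p = 0.133). Mrps18b (0.03) and Mrpl12 (-0.00) showed no difference larger than the spread of the livers. Without scaling between libraries the median of all genes lay at 0.21. Then 4 members were higher and 1 lower, beside 1657 and 89 of all 9536 genes. Upper-quartile scaling gave 0 members higher and 4 lower, beside 192 and 313 of all genes. Hepatocyte marker sums were 47460 to 61087 in KO livers and 34047 to 43501 in Ctrl livers, and their part was not tested.

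On HFD no member was called by limma among 62 tested, in either direction, and no other tool was run on these values. Of all 6176 genes 0.0486% were called, 0.0324% higher and 0.0162% lower. An unadjusted limma p below 0.05 was found for 3 members, a count likewise not set beside the share of all genes. The member median was 0.01, beside 0.02 over all genes, the range was -0.27 to 0.43, and 60 of 62 members lay within 0.3 of 0. The smallest adjusted p belonged to Mrpl33, with a log2 fold change of 0.32 (limma adjusted p = 0.223), then to Mrps22 (-0.27, 0.252) and Mrpl4 (-0.20, 0.403). One KO library, replicate 6, stood apart with a scale factor of 0.438. Mrpl52 had 9.82, 9.61, 11.4, 8.67, 10.5 and 9.13 in HFD KO livers, against 9.56, 7.95, 7.16, 8.87 and 9.9 in the 5 HFD Ctrl livers. The groups overlapped (log2 fold change 0.17 ± 0.09, limma adjusted p = 0.51).

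**Figure D5:**
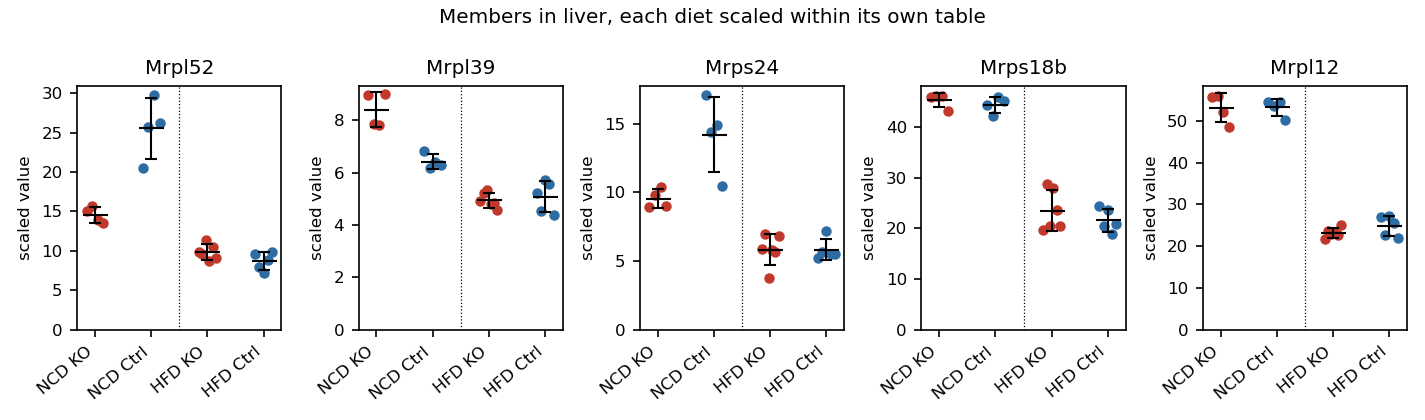
Scaled values of chosen members in livers on NCD and on HFD, with KO left of Ctrl; points are livers, and black lines are the mean ± SD of 4 KO and 4 Ctrl livers on NCD and of 6 KO and 5 Ctrl livers on HFD. Mrpl52 averages 14.5 in KO and 25.6 in Ctrl on NCD, and 9.86 in KO and 8.69 in Ctrl on HFD.

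The knockout effect was compared between diets for 61 members tested in both, as the KO over Ctrl log2 fold change on HFD minus that on NCD. Its p-values, called Welch here, come from the 2 separate limma estimates by a Welch-Satterthwaite approximation. Mrpl52 was the 1 member called, with a difference of 0.93 ± 0.15 (Welch adjusted p = 0.00773), beside 7.13% of all genes, 2.51% positive and 4.62% negative. The call was kept in each of 19 fits that left out 1 liver, with values of 0.87 to 1.03. It was lost without scaling between libraries (0.69, Welch adjusted p = 0.408). Mrpl39 (-0.37, Welch adjusted p = 0.0543) and Mrps22 (-0.45, Welch adjusted p = 0.0688) missed the threshold. The 2 diets were sequenced in separate tables, so their levels are not compared. Of the RNAs encoded by mitochondrial DNA, 6 of 16 were higher and 1 lower in KO livers on NCD (median 1.18, beside 0.04 over all genes, of which 4.16% were higher and 1.81% lower), none was called on HFD, and 10 of 16 were lower in the difference between diets (median -1.35). On NCD cytosolic ribosomal protein genes were higher for 4 of 79 and the respiratory chain list lower for 1 of 76, shares near those of all genes.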

How the data were processed

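Per the labels' protocols, ribosomal RNA was removed before strand-specific libraries were made. Kallisto, DESeq2 and the build mm10 are named, with no role, in the submitters' processing notes. The inducible, NCD and HFD tables hold a whole-number score that the authors deposited; column totals are nearly constant (859568 to 883564, 833910 to 872375 and 918867 to 975752), so depth is unknown. The conventional table holds read counts as the authors deposited them (4474760 to 8837581 per library).

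Scores were divided by a TMM factor and converted to log2(value + 1) from the deposited values, and genes with a mean of at least 3 were fitted with limma 3.58.1 (trend, robust; R 4.3.3), all groups of a table together. Counts were fitted with edgeR 4.0.16 (quasi-likelihood, robust, TMM, genes kept by filterByExpr). P-values were adjusted by Benjamini-Hochberg over all genes tested. The difference between diets used the within-table estimates and a Welch-Satterthwaite approximation for its degrees of freedom. The main limma and edgeR fits were tested on simulated data, for a single comparison in each table. The interactions, the difference between diets and the alternatives below were not simulated.

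The members and lists were chosen with earlier results of these data known. Always named were Falcor, Zc3h11a and 13 members with described roles; the rest had to be called, to average 5 or more in whichever group was higher and not to overlap between groups, taking the largest changes in each direction. Alternatives were other scalings, filters and pseudocounts, a correction for transcript length, DESeq2 1.42.0 on the counts, a replicate block, leaving out each library, and, chosen after seeing the data, a fit of the compared groups alone. For 2 NCD and 2 HFD control columns the group is known but not the replicate. The replicate block left out these and the KO livers without a same-numbered control.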

Additional observations from a re-analysis of the deposited data

Results flagged for a closer look

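Mrpl33 was 30.4 in NCD Ctrl replicate 4, against 20.6 to 21.6 in the other 3 NCD Ctrl livers, and stood far from them. Mrps24 was 7.16 in HFD Ctrl replicate 3, against 5.22 to 5.68 in the other HFD Ctrl livers. These 2 were found among 24 sets of libraries examined, and chance gives about 1 in 20. Mrps12 was not flagged, although it was 9.43 in NCD Ctrl replicate 4, against 21.6 to 23.6 in the other NCD Ctrl livers.

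The shLinc over shCtrl difference depended on the doxycycline state for 65 members between Add Dox and No Dox by limma. The difference of log2 fold changes was 1.32 for Mrpl23, 1.02 for Mrps18b, 0.94 for Mrpl12 and 0.92 for Mrps18a. It was -1.07 for Mrpl1 and -0.75 for Mrpl50. Between Add Dox and Restored 60 members differed, with 1.02 for Mrpl23, 0.91 for Mrps18b, 0.91 for Mrps27 and 0.83 for Mrps10, and with -0.79 for Mrpl1, -0.57 for Mrpl50, -0.30 for Mrpl51 and -0.22 for Mrps18c. Between diets 1 member differed in its knockout effect, Mrpl52, with 0.93.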

How the results depend on the processing

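Of 144 results for named members, 126 kept their call and direction under every alternative run and 18 lost it under some. Of their 1920 values under the alternatives, 1835 were on the same side of the threshold, 85 had crossed it, and none reversed. Counts of members called moved by more than 1.5 times in livers only. On NCD the count of 2 became 4 with a minimum mean of 10 and 4 with upper-quartile scaling. It was 5 without scaling and 1 with the length correction. It was 0 with the replicate block, which kept only replicates 3 and 4 of each group. In that smaller fit 5 of all 9536 genes were called higher and 5 lower. Leaving out 1 liver gave 0 to 9, the 9 without Ctrl replicate 4. For the difference between diets the count of 1 became 0 without scaling. It was also 0 with a minimum mean of 10, where 19 members were tested and Mrpl52, too low on HFD, was not among them. Leaving out 1 liver gave 1 to 7, the 7 without NCD Ctrl replicate 4. The causes of the other changes in count were not tested. No comparison had deviations correlated above 0.1 in every same-numbered pair (correlations of -0.109 to 0.197), so libraries were not paired. With so few pairs, such correlations cannot exclude pairing. With the replicate block, on replicates 3 and 4 alone, Mrpl52 on NCD was -0.98 (limma adjusted p = 0.147). Leaving out 1 library gave 64 to 67 called members in No Dox, 22 to 23 in Add Dox, 54 to 56 in Restored and 28 to 35 with shFalcor. The score tables give no depth, so low members such as Mrpl23 and Mrpl3 have an unknown counting error.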
